A study of Mus musculus with 15 samples.

Results

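The comparison described here is of the medial prefrontal cortex (mPFC) of mice without ABX treatment, after against before fear extinction. It used 7 of the 15 RNA-seq libraries of the series, chosen by the labels alone: 3 labelled pre-extinction and not ABX-treated (replicates 1, 3 and 4) and 4 labelled post-extinction and not ABX-treated (replicates 1 to 4). All mice were C57BL/6J, and the 8 other libraries come from ABX-treated mice, 4 before and 4 after extinction. The labels do not spell out ABX, the usual abbreviation in the field for a mixture of antibiotics. They give no age, no time between the last session and dissection, and no group without conditioning, so the stage label covers the extinction procedure together with whatever else separated both times of sampling. They do not say whether each library is 1 animal, and p-values then measure the spread between these libraries, which may be technical.

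In fear extinction an animal that has learned to fear a cue comes to respond less as the cue is repeated without the aversive event, and the mPFC is among the regions that regulate it. Neuronal activity induces immediate early genes within minutes to hours, first transcription factors such as Fos and the Egr family and then effectors at the synapse such as Arc and Bdnf. Neurons and glia also make their own cholesterol, because little of it crosses the blood-brain barrier, through an enzyme chain whose genes are switched on together by SREBP transcription factors when sterol is low.

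The 7 libraries held 47863644 to 57929503 counts each, and 16816 genes were tested. Levels are in CPM, counts brought to a common library size with TMM factors, and are listed in the order pre-extinction replicates 1, 3 and 4, then post-extinction replicates 1 to 4. Differences are log2 fold changes, post minus pre. The dissected tissue carried cortical markers: Slc17a7, the vesicular glutamate transporter of cortical excitatory neurons, was at 1424 to 1809 CPM, whereas Drd2, a marker of striatal neurons, was at 0.509 to 0.756 CPM. Levels in bulk tissue cannot tell fewer cells of a type from less RNA per cell.

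The libraries differed in a trend with the GC content of transcripts, and this trend moved with the stage. In the 20% of genes with the highest GC content, the median deviation from the gene's mean over all 15 libraries was -0.059, 0.378 and -0.134 on the log2 scale in the pre-extinction libraries and 0.221, 0.296, 0.167 and 0.072 in the post-extinction libraries. Pre-extinction replicate 3 thus stood with the post-extinction libraries. Across genes, GC content and the stage fold change had a Spearman correlation of 0.531, against -0.011 in a fit that takes the trend out of each library. That alternative was added once the trend had been seen. Values from that fit stand beside some of the gene groups and genes below, and the remaining values are from the main fit alone. The part of the trend in any single difference was not tested.

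**Figure D1:**
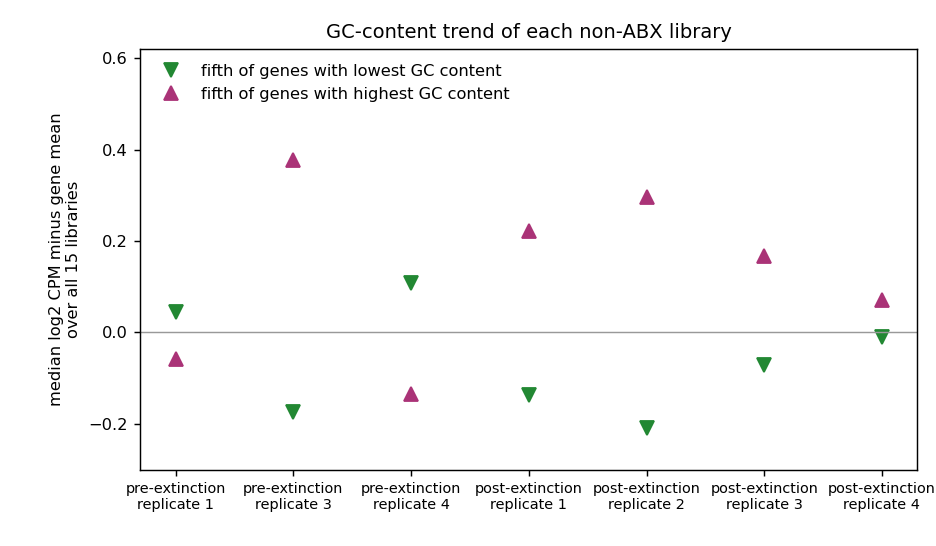
Median log2 CPM of the genes of lowest and of highest GC content (20% of genes each), each gene relative to its mean over all 15 libraries, in the 7 non-ABX libraries. The 4 post-extinction libraries and pre-extinction replicate 3 have the high-GC genes above the low-GC genes, and pre-extinction replicates 1 and 4 have them below.

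No single gene passed an edgeR quasi-likelihood adjusted p of 0.05 (0 of 16816 genes, 0%). At an unadjusted p under 0.05, 830 genes (4.94%) differed, of which 576 (3.43%) were lower after extinction and 254 (1.51%) higher. Over all genes 50.9% had a negative log2 fold change, or 48.1% with the GC-content trend removed. In 993 genes (5.91%) the 3 pre-extinction and the 4 post-extinction libraries did not overlap, 601 (3.57%) with all post-extinction libraries lower and 392 (2.33%) with all of them higher. DESeq2 called 19 genes, 17 lower and 2 higher, and limma voom with library quality weights called 3191, 1934 higher and 1257 lower. In the fit without the GC-content trend edgeR called 2 genes (0.013% of 15332), both lower, and 612 (3.99%) were lower and 410 (2.67%) higher at an unadjusted p under 0.05. Without pre-extinction replicate 3 edgeR called 1 gene, Myl3, a myosin light chain that the main filter on low counts removed, and 3103 genes were at an unadjusted p under 0.05, 1829 of them higher. Because no gene passed the main test, differences below are given as values, and "lower" and "higher" describe the libraries.

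The gene of smallest p was Myh6 (Entrez 17888, chr14:54941921-54968017 on mm10), the alpha heavy chain of cardiac myosin. Its level was 5.07, 4.74 and 4.79 CPM before extinction and 1.87, 2.1, 2.74 and 2.62 CPM after it. Every post-extinction library lay below every pre-extinction library (log2 fold change -1.06, SE 0.16, unadjusted p = 5.8e-06, edgeR adjusted p = 0.0969). In the fit without the GC-content trend its log2 fold change was -1.17 (edgeR adjusted p = 0.0495). The counts do not show how reads common to Myh6 and its close paralog Myh7 were assigned, so both are uncertain. Myh7 was at 6.77, 8.78 and 4.79 CPM before extinction and 6.68, 8.76, 6.55 and 4.54 CPM after it.

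The lower gene with the next smallest p was Kcnh7 (chr2:62693410-63184287), a voltage-gated potassium channel of the ERG family, at 24.4, 29.5 and 35.3 CPM before extinction and 12, 14.8, 13.9 and 20.9 CPM after it. The groups did not overlap, with post-extinction replicate 1 lowest and replicate 4 nearest to the pre-extinction range (log2 fold change -0.95, SE 0.17, unadjusted p = 3.5e-05). Also among the 12 lower genes, Gabrb1 (chr5:71657921-72149572), the beta-1 subunit of the GABA-A receptor, was at 17.7, 16.8 and 20.3 CPM before extinction and 10.9, 12.9, 11.6 and 13.8 CPM after it (log2 fold change -0.57, SE 0.13, unadjusted p = 3.6e-04). Kctd16, an auxiliary subunit of GABA-B receptors, was at 14.2, 14 and 15.2 CPM before extinction and 10.2, 10.7, 9.35 and 10.9 CPM after it, and here too the groups were apart (log2 fold change -0.49, SE 0.09). Dgkh, a diacylglycerol kinase that ends diacylglycerol signalling, had 17.9, 21 and 22.8 CPM before extinction and 10.04, 13.6, 10.6 and 15.3 CPM after it. Dok6, an adaptor of the Ret and Trk receptor tyrosine kinases, had 15.2, 14.5 and 15.3 CPM before extinction and 7.98, 9.76, 10.8 and 11.7 CPM after it. Both lay lower in all 4 post-extinction libraries, with log2 fold changes of -0.73 and -0.58.

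After Kcnh7 by p came Ago3, an Argonaute protein that binds small RNAs, at 12.2, 13.2 and 16.1 CPM before extinction and 7.19, 9.4, 7.73 and 10.2 CPM after it (log2 fold change -0.68, SE 0.13, unadjusted p = 7.4e-05). Zbed6, a transcription factor derived from a DNA transposon, had a log2 fold change of -0.58 (SE 0.12), and Etv6, a transcriptional repressor of the ETS family, one of -0.32 (SE 0.07). Cdkn1a (chr17:29090979-29100722), the cell cycle inhibitor p21, was at 32.4, 33.3 and 30.3 CPM before extinction and 24.6, 24.7, 24.6 and 21.4 CPM after it. Its groups were apart and each was tight, which gave a small difference with a small error (log2 fold change -0.43, SE 0.09, unadjusted p = 2.4e-04). It was the second gene that edgeR called with the GC-content trend removed, at a log2 fold change of -0.50 and an adjusted p of 0.0495. Ppfibp1, a liprin scaffold protein, had a log2 fold change of -0.33, and the sterol enzyme gene Cyp51 completed the 12.

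The 12 higher genes of smallest p were led by Prr16 (chr18:51117898-51304641), a regulator of cell size, at 11.2, 8.7 and 8.52 CPM before extinction and 13.2, 13.6, 14.4 and 13.9 CPM after it (log2 fold change 0.54, SE 0.11, unadjusted p = 1.7e-04). Pde10a (chr17:8525187-8986648), the phosphodiesterase that breaks down cyclic nucleotides in striatal neurons and is present at lower level in cortex, was at 95, 100.4 and 118 CPM before extinction and 129, 155, 176 and 163 CPM after it. All post-extinction libraries exceeded all pre-extinction libraries in both genes, and for Pde10a the log2 fold change was 0.57 (SE 0.12). Over the list of striatal projection neurons 13 of 21 tested genes had a positive log2 fold change, with a median of 0.05, and Rasd2 was at 0.26. The summed level of this list, Pde10a included, was 891, 990 and 937 CPM before extinction and 1032, 1069, 1028 and 1034 CPM after it. Those sums were apart, whereas the mean log2 CPM of the list overlapped. The striatal marker Drd2 stayed under 1 CPM in all 7 libraries, and Adora2a was at 1.09 to 2.15 CPM. The part of striatal tissue in these differences was not tested. Lyve1, a hyaluronan receptor of perivascular macrophages and lymphatic endothelium, was at 1.5, 1.32 and 1.46 CPM before extinction and 2.79, 2.51, 3.01 and 2.31 CPM after it (log2 fold change 0.89, SE 0.22, unadjusted p = 0.00102). Olig2, the transcription factor of the oligodendrocyte lineage, was at 9.46, 11.2 and 10.6 CPM before extinction and 13.9, 14, 13.1 and 13.6 CPM after it, but its log2 fold change of 0.39 was 0.26 with the GC-content trend removed (unadjusted p = 0.13).

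The remaining higher genes differed by 0.32 to 0.72 on the log2 scale. They included Maml3, a Notch coactivator (0.72), Smpdl3b, a sphingomyelinase-like protein (0.72), Itga11, a collagen-binding integrin (0.55), Sertad3 (0.53), Adamts17, a secreted metalloprotease (0.47), Cdh4, R-cadherin (0.36), and Mthfd1l, a mitochondrial enzyme of folate metabolism (0.32). Their groups did not overlap because the naming rule asked for that. The edgeR adjusted p was 0.097 to 0.41 for the 12 lower genes and 0.38 to 0.63 for the 12 higher ones.

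**Figure D2:**
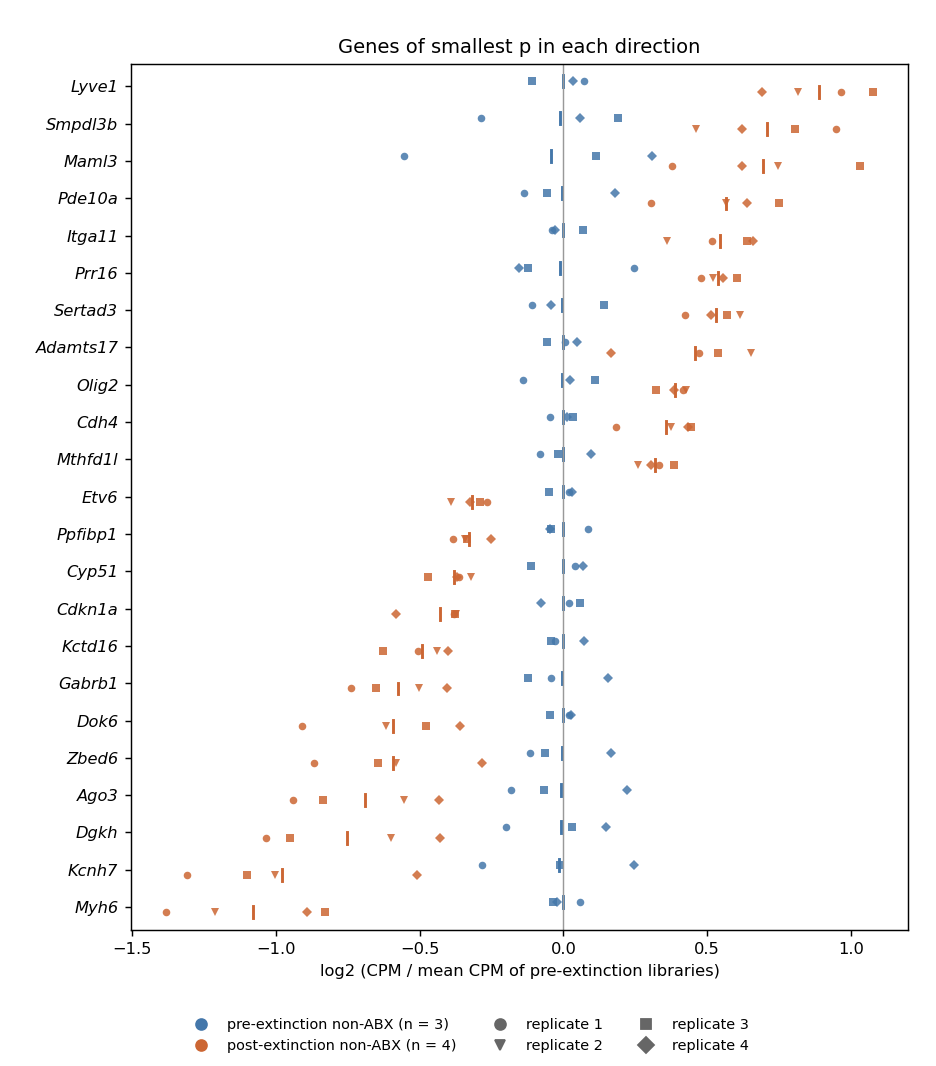
CPM of the 12 lower and 11 of the 12 higher genes of smallest p in each of the 7 libraries, as log2 of the ratio to the mean of the pre-extinction libraries. Points are libraries, vertical bars are group means, and the groups are apart for every gene because the rule required it; Myh6 and Kcnh7 lie lowest and Lyve1 highest.

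The genes that were lower after extinction spanned more of the genome than others. The 537 of them that have an annotated transcript had a median genomic span of 67.6 kb, against 24.5 kb over all 15332 tested genes with a transcript and 20.9 kb for the 230 higher genes. Spans above 100 kb made up 35.75% of the lower genes, 18.26% of the higher genes and 14.97% of all. The lower genes also had a lower median GC content, 45.12% against 49.89% over all genes. Their transcripts were longer too, with a median of 5424 bases, against 3398 over all genes and 3022 for the higher genes. After removal of the GC-content trend the lower genes had a median span of 50.6 kb and a median GC content of 48.43%, and 30.39% of them spanned above 100 kb. Their median transcript length was then 4772 bases.

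Genes of cholesterol synthesis were lower after extinction along much of the pathway. All 20 enzymes on the list were tested, 17 had a negative log2 fold change, 9 were lower at an unadjusted p under 0.05 and 0 higher, and in 9 all post-extinction libraries lay below all pre-extinction libraries (3.57% of all genes). The median log2 fold change was -0.14, against -0.003 over all genes, of which 3.43% were lower at that p. Without the GC-content trend 17 of 20 were negative and 12 were lower at an unadjusted p under 0.05 (3.99% of all genes), with a median of -0.15. Without pre-extinction replicate 4 the number at that p was 3, without pre-extinction replicate 1 it was 5, and the median was -0.14 and -0.16. Without pre-extinction replicate 3, 14 were negative, with 9 lower and 1 higher at that p. Under voom with quality weights 14 were negative, with 11 lower and 1 higher.

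The promoters of these enzymes are shown because the genes were lower together. In RefSeq windows from 250 bases before to 50 after the gene start (GRCm38.p6, the first window listed for a gene), the letters CCAAT on either strand were present in 13 of the 15 sterol enzymes with a window (86.67%), against 4862 of 12772 tested genes (38.07%). They were also present in 13 of 18 clock genes (72.22%) and 5 of 10 genes of sterol uptake and SREBP control (50%). Activity-regulated effectors had them in 9 of 23 (39.13%) and immediate early transcription factors in 7 of 22 (31.82%). CCAAT is the core of the site bound by NF-Y, a factor known to act together with SREBP. The sterol response element spelled TCACNCCAC was present in 1 of 15, Hmgcs1, and in 1.09% of all windows. A match describes the letters and is not evidence of a bound site. Stretches are printed only for enzymes that were lower at an unadjusted p under 0.05 and have a CCAAT match. In the stretches below, printed on the strand of the gene, capitals mark CCAAT or its reverse ATTGG, and in the second Hmgcs1 stretch the sterol response element.
Hmgcs1 (chr13:119690333-119690392, plus strand): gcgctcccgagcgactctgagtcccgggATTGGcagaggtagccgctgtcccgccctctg
Hmgcs1, sterol response element (chr13:119690189-119690247, plus strand): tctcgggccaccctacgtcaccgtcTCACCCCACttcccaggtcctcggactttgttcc
Cyp51 (chr5:4104695-4104754, minus strand): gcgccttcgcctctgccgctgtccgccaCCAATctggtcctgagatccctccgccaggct
Msmo1 (chr8:64733602-64733661, minus strand): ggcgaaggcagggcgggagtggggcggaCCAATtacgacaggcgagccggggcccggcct
Nsdhl (chrX:72918501-72918560, plus strand): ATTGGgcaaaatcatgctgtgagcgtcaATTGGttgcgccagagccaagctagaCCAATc
Hsd17b7 (chr1:169969186-169969245, minus strand): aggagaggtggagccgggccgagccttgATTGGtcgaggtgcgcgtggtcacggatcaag
Sc5d (chr9:42264293-42264352, minus strand): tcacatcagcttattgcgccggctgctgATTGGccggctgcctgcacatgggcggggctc

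Early in the pathway Hmgcs1, the synthase that makes HMG-CoA, was at 362, 321 and 383 CPM before extinction and 258, 285, 298 and 309 CPM after it. All post-extinction libraries lay below all pre-extinction libraries, post-extinction replicate 1 was lowest, and the log2 fold change was -0.31 (SE 0.11). The mevalonate kinases and the decarboxylase further on were closer to 0: Mvk, Pmvk and Mvd had log2 fold changes of 0.07, 0.01 and -0.13, with pre-extinction replicate 3 highest in all 3. Idi1, an isomerase at about 0.5 CPM, had -0.09 (SE 0.23).

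The genes of squalene epoxidation and of lanosterol demethylation were lower as well. Sqle, squalene epoxidase, was at 75.4, 76.4 and 79.5 CPM before extinction and 65.9, 63.3, 64 and 69.5 CPM after it (log2 fold change -0.23, SE 0.09, unadjusted p = 0.0153). Cyp51, lanosterol demethylase, was at 87.2, 78.5 and 89.1 CPM before extinction and 66.1, 68, 61.2 and 65.7 CPM after it (log2 fold change -0.38, SE 0.09, unadjusted p = 4.0e-04). In both genes the groups were apart, and Cyp51 had the smallest p of the list. Msmo1, Nsdhl and Hsd17b7, which together remove the methyl groups at carbon C-4, had log2 fold changes of -0.31, -0.22 and -0.26, and Sc5d, the lathosterol oxidase, -0.23.

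The regulators that respond to the same sterol signal were mixed. Of 13 tested genes of sterol uptake and SREBP control, 7 had a negative log2 fold change and 3 were lower at an unadjusted p under 0.05 (3.43% of all genes). Insig1, the membrane protein that retains SREBP in the endoplasmic reticulum and is itself a target of SREBP, was at 59.5, 55.3 and 55.3 CPM before extinction and 44.5, 45.1, 45.5 and 44.8 CPM after it (log2 fold change -0.33, SE 0.08, unadjusted p = 0.0011). Its 4 post-extinction values lay within 1 CPM of each other and below every pre-extinction value. Stard4, a sterol carrier, had a log2 fold change of -0.32 (SE 0.12) with overlapping groups. Srebf2, which encodes the main sterol SREBP, was at 192, 291 and 192 CPM before extinction and 218, 244, 220.2 and 211 CPM after it, with pre-extinction replicate 3 apart from the others, and gave a log2 fold change of -0.01 (SE 0.16) that turned positive under 3 alternatives. Sterol efflux and esterification genes had 6 of 12 negative and 0 at an unadjusted p under 0.05, and among 17 fatty acid synthesis genes only Elovl6 was lower at that p (-0.29).

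**Figure D3:**
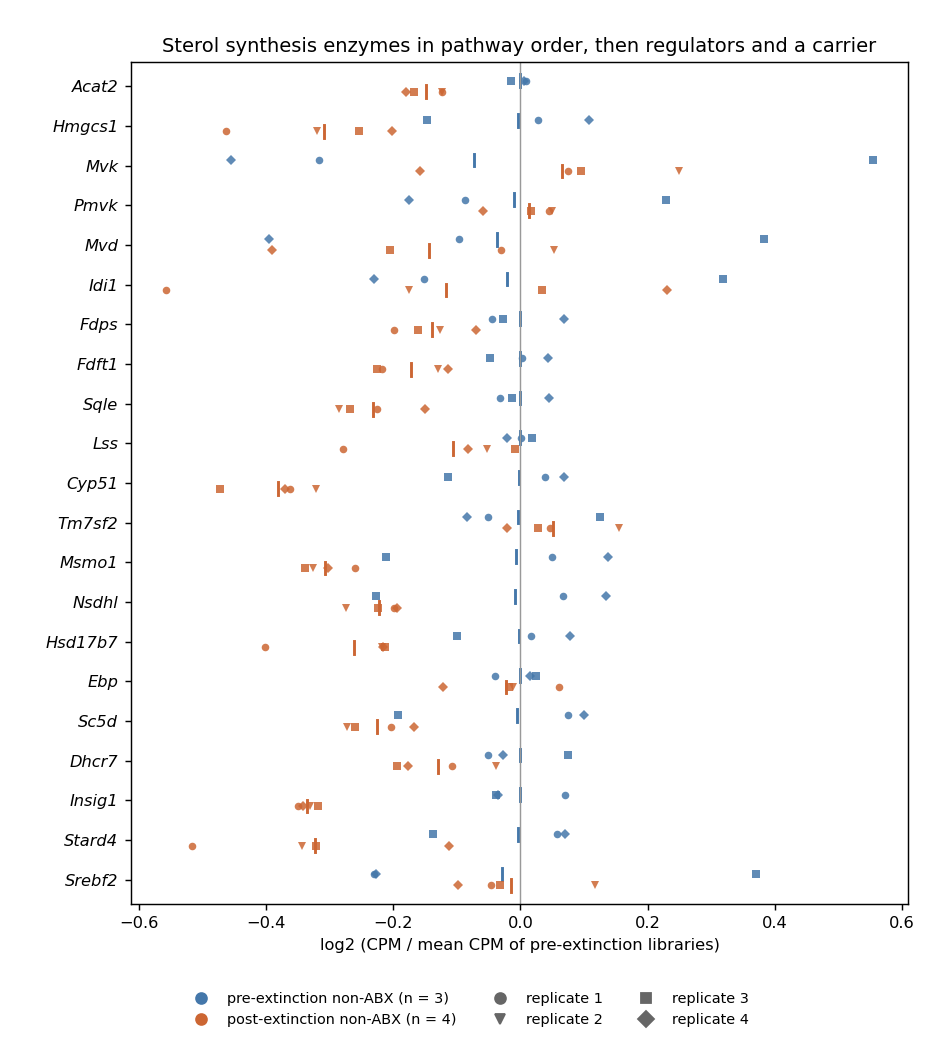
CPM of 18 of the 20 sterol synthesis enzymes in pathway order, followed by Insig1, Stard4 and Srebf2, in each of the 7 libraries as log2 of the ratio to the pre-extinction mean. Post-extinction libraries (orange) lie left of the pre-extinction libraries (blue) for Hmgcs1, Sqle, Cyp51 and Insig1, while Mvk, Mvd, Idi1 and Srebf2 spread widely within the pre-extinction group.

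Immediate early transcription factors had mostly negative fold changes, but the size rested on few libraries. Of 27 tested members 24 had a negative log2 fold change, 7 were lower at an unadjusted p under 0.05 (3.43% of all genes) and 0 higher, and 5 had all post-extinction libraries below all pre-extinction libraries (3.57% of all genes), with a median of -0.22. Removing the GC-content trend left 25 negative and 10 lower at that p (3.99% of all genes), with a median of -0.30. The mean log2 CPM of the list was 3.82, 4.36 and 4.00 before extinction and 3.47, 3.96, 3.99 and 3.91 after it, so that pre-extinction replicate 3 was highest, post-extinction replicate 1 lowest, and the other 5 libraries lay between 3.82 and 4.00. Without pre-extinction replicate 3 the list had 15 of 27 negative and a median of -0.03. Without post-extinction replicate 1 it had 20 negative, 4 lower at that p and a median of -0.10, and under voom with quality weights 12 negative and a median of 0.01. Without pre-extinction replicate 1 the median was -0.37, and without pre-extinction replicate 4 the number at that p was 4.

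The members with the smallest p were the Nr4a and Egr genes. Nr4a2, an orphan nuclear receptor, was at 9.9, 10.5 and 10.8 CPM before extinction and 6.77, 7.56, 7.14 and 8.44 CPM after it. Egr2, a zinc finger factor, was at 10.1, 13.9 and 13.3 CPM before extinction and 3.09, 7.39, 8.11 and 8.09 CPM after it, and Nr4a3 at 11.8, 13.2 and 10.8 CPM before extinction and 5.7, 8.87, 6.57 and 9.31 CPM after it. The groups were apart in these 3 genes, with post-extinction replicate 1 lowest in each. The log2 fold changes were -0.47 (SE 0.13), -0.90 (SE 0.26) and -0.65 (SE 0.19). Klf10 had -0.49, Fosl2 -0.23, Ier5 -0.30 and Egr1 -0.39, with unadjusted p of 0.01 to 0.037.

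The classical markers of recent activity did not separate the stages. Fos was at 27.1, 35 and 27.5 CPM before extinction and 9.91, 24.4, 28.9 and 25 CPM after it (log2 fold change -0.44, SE 0.31), and Npas4, a factor induced by calcium entry, at 33.9, 37.6 and 33.4 CPM before extinction and 13.9, 28.8, 49.98 and 30.6 CPM after it (log2 fold change -0.18, SE 0.33). In both the post-extinction group held the lowest library, replicate 1, and replicate 3 above the pre-extinction median, so the ranges overlapped. Junb ranged from 9.20 to 33.5 CPM within the pre-extinction group alone.

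**Figure D4:**
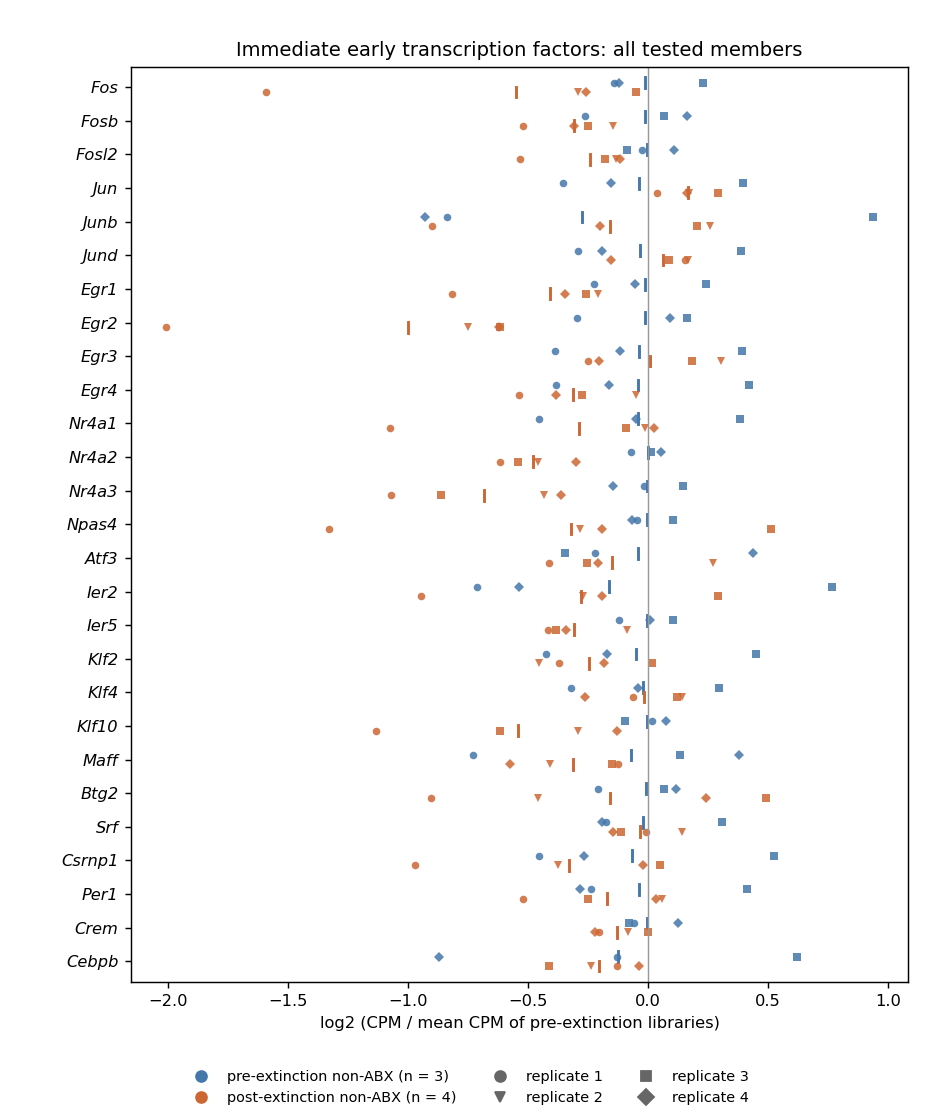
CPM of the 27 tested immediate early transcription factors in each of the 7 libraries, as log2 of the ratio to the pre-extinction mean. Post-extinction replicate 1 (orange circle) is far left for Fos, Egr2, Npas4, Nr4a1 and Klf10, and pre-extinction replicate 3 (blue square) is the rightmost pre-extinction library for most genes.

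Effectors induced by activity had 27 of 31 members with a negative log2 fold change, a median of -0.18, and 5 lower at an unadjusted p under 0.05 (3.43% of all genes): Gpr3, Baz1a, Tiparp, Arl5b and Sik1. Gpr3, a receptor that raises cyclic AMP without ligand, was at 8.02, 11.4 and 8.7 CPM before extinction and 4.92, 7.7, 6.76 and 7.32 CPM after it (log2 fold change -0.49, SE 0.15, unadjusted p = 0.00398). Arc, which regulates AMPA receptor traffic at synapses, was at 169, 376 and 264 CPM before extinction and 51.1, 184, 247 and 248 CPM after it, a wide spread in which post-extinction replicate 1 was lowest (log2 fold change -0.57, SE 0.38). Bdnf, the neurotrophin that binds TrkB, was at 38.9, 38.1 and 43.4 CPM before extinction and 29.9, 35, 35.7 and 34 CPM after it: the groups were apart, with an unadjusted p of 0.053 and a log2 fold change of -0.25 that was -0.14 with the GC-content trend removed. Without post-extinction replicate 1 the effectors lower at an unadjusted p under 0.05 numbered 2, and without pre-extinction replicate 4 they numbered 3 with a median of -0.11. MAP kinase phosphatases and feedback inhibitors, which shut off the kinases that drive these genes, had 11 of 14 negative and 1 at that p, Errfi1 (-0.20).

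The cyclic AMP response element TGACGTCA, a palindrome bound by CREB, was present in the promoter windows of 5 of 23 effectors (21.74%) and of 1 of 22 immediate early transcription factors (4.55%), against 2.94% of all windows. The effectors were Plk2, Pcsk1, Scg2, Arl4d and Arl5b, and the element is shown in capitals for Arl5b, the one among them that was lower at an unadjusted p under 0.05, and for Scg2.
Arl5b (chr2:15055174-15055231, plus strand): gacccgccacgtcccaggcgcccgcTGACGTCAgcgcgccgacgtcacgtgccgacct
Scg2 (chr1:79440062-79440119, minus strand): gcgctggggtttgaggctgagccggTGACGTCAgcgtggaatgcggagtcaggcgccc

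Clock and glucocorticoid-responsive genes, which report time of day and stress hormone, showed differences in both directions. Of 21 clock genes 5 were lower at an unadjusted p under 0.05 (3.43% of all genes) and 1 higher (1.51% of all genes), with a median of -0.04 that was 0.09 without pre-extinction replicate 3. Bhlhe40, a repressor that is also induced by activity, was at 295, 320.2 and 308 CPM before extinction and 211, 259, 217 and 229.8 CPM after it (log2 fold change -0.43, SE 0.12, unadjusted p = 0.00298), and Tef, an output factor of the clock, at 427, 470.2 and 448 CPM before extinction and 530.4, 493, 496 and 488 CPM after it (log2 fold change 0.16, SE 0.06, unadjusted p = 0.0153). Arntl, which encodes BMAL1, had -0.20, Clock -0.26 and Rora -0.39. Of 24 glucocorticoid-induced genes 12 were positive and 12 negative, 2 were higher and 3 lower at that p, and the median was -0.01. The most negative member was Cdkn1a, described above (log2 fold change -0.43, SE 0.09, unadjusted p = 2.4e-04). Without pre-extinction replicate 3, 15 were positive with a median of 0.11, and under voom 17 with a median of 0.13. Plin4, a lipid droplet protein, was at 3.72, 4.35 and 4.28 CPM before extinction and 8.02, 7.34, 10.1 and 7 CPM after it, apart in all libraries (log2 fold change 0.98, SE 0.37), and Fkbp5, a chaperone that glucocorticoids induce, was at 36.9, 37.8 and 36.6 CPM before extinction and 46.7, 43.5, 47.2 and 38.9 CPM after it, with the groups apart as well (log2 fold change 0.25, SE 0.14, unadjusted p = 0.101).

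Ion channel and synapse genes held single genes that were lower. Of 39 genes of potassium channels and proteins listed with them 6 were lower and 1 higher at an unadjusted p under 0.05, with a median of 0.01. Over all genes 3.43% were lower and 1.51% higher at that p, shares that also stand beside the counts below. Besides Kcnh7 and Kctd16 the lower genes of the potassium list were Kcnb2 (-0.30), Kcnh5 (-0.39), Kcnma1, the large-conductance calcium-activated channel (-0.33), and Kcnn3 (-0.24). Kctd16 and the higher gene, Kctd8 (0.28), are auxiliary subunits of GABA-B receptors and not channels. Kcnma1 was at 139, 136 and 149.8 CPM before extinction and 96.3, 120, 107 and 127 CPM after it. Among 21 GABA genes, with a median of -0.08, Gabrb1 and Gabrg3 (-0.57) were lower, and among 41 genes of axon guidance and protocadherins, with a median of -0.02, 6 were lower and 1 higher, led by Pcdh11x (-0.38). Of 32 synaptic vesicle genes and 30 sodium and calcium channel genes, 0 were at an unadjusted p under 0.05 in either direction, and 2 of 27 ionotropic glutamate receptor genes were lower, Grik2 (-0.25) and Gria4 (-0.26). With the GC-content trend removed the potassium list had 5 lower and 2 higher at that p (3.99% and 2.67% of all genes). Kcnb2 then had -0.18 (unadjusted p = 0.086). The GABA list had 2 lower with a median of -0.01, and the axon guidance list 6 lower and 0 higher, with Pcdh11x at -0.26.

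Markers of deep and upper cortical layers had medians of opposite sign. Deep layer excitatory neuron genes had 23 of 27 negative with a median of -0.21 (24 negative and -0.20 with the GC-content trend removed), but 2 lower at an unadjusted p under 0.05 (3.43% of all genes), Nr4a2, which is also an immediate early gene, and Ntsr1, the neurotensin receptor of layer 6 cells (-0.51). Their mean log2 CPM was 4.41, 4.58 and 4.51 before extinction and 4.08, 4.22, 4.29 and 4.61 after it. Post-extinction replicate 4 was the highest of all 7 libraries, so the groups overlapped, and without it 11 members were lower at that p. Without post-extinction replicate 1 the median was -0.11. Upper layer genes had 13 of 18 positive, a median of 0.10 and 1 higher at an unadjusted p under 0.05 (1.51% of all genes), Matn2 (0.17). Their median was 0.02 without pre-extinction replicate 4, 0.04 without post-extinction replicate 2 and 0.06 without pre-extinction replicate 1, and 0 were at that p without pre-extinction replicate 1, post-extinction replicate 3 or post-extinction replicate 4. The layer makeup of each dissection was not measured otherwise, and its part in these differences was not tested.

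Genes of meningeal fibroblasts and of perivascular macrophages mostly had positive log2 fold changes. Fibroblast genes had 23 of 28 positive with a median of 0.14, and 2 were higher at an unadjusted p under 0.05 (1.51% of all genes), Mgp (0.48) and Foxd1 (0.71). Their summed level was 1026 to 1554 CPM before extinction and 1159 to 2022 CPM after it, which overlapped. Without pre-extinction replicate 4 the list had 18 positive and a median of 0.05, and without post-extinction replicate 1 17 positive and 0.08, with 0 at that p in either case. Leaving out others raised the number at that p, to 9 without pre-extinction replicate 3 and 7 without post-extinction replicate 4, and the median, to 0.21 without pre-extinction replicate 1 and 0.21 without post-extinction replicate 4. Genes of perivascular macrophages and lymphatic endothelium had 14 of 15 positive with a median of 0.22, and 2 were higher at that p, Lyve1 and Cd163 (0.33). This median was 0.05 without pre-extinction replicate 4, 0.08 without post-extinction replicate 1 and 0.35 without post-extinction replicate 4, and 1 member was at that p without pre-extinction replicate 3 or 4 or post-extinction replicate 1 or 3. Pericyte and smooth muscle genes had 12 of 16 positive with a median of 0.13 and 1 at that p, Anpep (0.28), and choroid plexus and ependyma genes 9 of 11 with a median of 0.19 and 0 at that p. Microglia, endothelial and mature oligodendrocyte lists had medians of 0.04, 0.02 and 0.01, with 0, 0 and 1 member at an unadjusted p under 0.05, the last being Klk6 (-0.80). Astrocyte genes had 14 of 20 positive with a median of 0.09. Of the 6 negative ones Aqp4, the water channel of astrocyte endfeet, was at 123, 102 and 112 CPM before extinction and 97.9, 90.03, 90.05 and 85.2 CPM after it (log2 fold change -0.31, unadjusted p = 0.00848).

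Genes best known from heart muscle formed the list with the most negative median. The list was chosen with earlier results of these data known and holds Myh6, the gene of smallest p. Its counts, here and beside ABX mice, therefore describe these libraries and are not an independent test. Of 16 listed 12 passed the filter on low counts, which a gene can pass through its higher group alone, and those 12 each had a negative log2 fold change, with a median of -0.38 and 4 lower at an unadjusted p under 0.05 (3.43% of all genes). Besides Myh6, Myl2, the ventricular regulatory light chain, was at 0.741, 0.988 and 0.679 CPM before extinction and 0.472, 0.416, 0.253 and 0.276 CPM after it and Nppa, atrial natriuretic peptide, at 0.655, 0.692 and 0.699 CPM before extinction and 0.396, 0.265, 0.4 and 0.434 CPM after it. The groups were apart in both, but the levels were under 1 CPM. Mybpc3, cardiac myosin-binding protein C, was at 1.43, 1.98 and 1.56 CPM before extinction and 1.21, 1.25, 1.24 and 1.2 CPM after it (log2 fold change -0.43, SE 0.16, unadjusted p = 0.0148). Ryr2, also a neuronal calcium release channel, had a log2 fold change of -0.13 and Tnnt2, cardiac troponin T, one of -0.21. Without pre-extinction replicate 3, 10 of the 12 were negative, and without post-extinction replicate 2 the median was -0.24. Once the GC-content trend was removed the median was -0.30, with 6 lower at that p (3.99% of all genes). Among the 8 members with a mean of at least 1 CPM it was -0.19.

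The ABX-treated mice give the same stage contrast in 8 libraries that share none with the 7 described so far. There edgeR called 16 genes (0.0951%) and 2798 (16.6%) were at an unadjusted p under 0.05. Of the 576 genes lower in non-ABX mice, 523 (90.8%) had the same sign in ABX mice and 325 (56.42%) were also lower there at an unadjusted p under 0.05, against 8.97% of all genes. Of the 254 higher genes, 210 (82.68%) had the same sign and 83 (32.68%) were also higher at that p, against 7.67% of all genes. Both contrasts were tested in the same fit with a shared estimate of each gene's spread, so their p-values are not independent. Over all genes 75.84% had the same sign, and the fold changes had a Pearson r of 0.457 and a Spearman rho of 0.569 across genes, which are not independent replicates. The GC-content trend moved with the stage in both arms, and with it removed 67.7% had the same sign, with r of 0.354 and rho of 0.427, and 88.73% of 612 lower and 82.2% of 410 higher genes kept the sign. Of these, 47.55% of the lower and 29.02% of the higher genes were also at that p in the same direction in ABX mice. Among all 15332 genes of that fit, 1171 were lower and 1078 higher at that p in ABX mice.

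The sterol enzymes had the same sign in both arms in 20 of 20 cases, with a median of -0.18 in ABX mice and 11 lower there at an unadjusted p under 0.05 (8.97% of all genes). Cyp51 had -0.38 without and -0.35 with ABX, and Insig1 -0.33 and -0.41. Kcnh7 had -0.95 and -0.96, and Gabrb1 -0.57 and -0.55. Effectors of activity had the same sign in 30 of 31 cases and a median of -0.24 in ABX mice. Other lists had a smaller share of the same sign than the 75.84% over all genes. Immediate early transcription factors had it in 18 of 27 cases (66.67%), with a median of -0.04 in ABX mice and 12 positive there. With the GC-content trend removed their median in ABX mice was -0.20, with 22 negative and 5 positive. In non-ABX mice it was -0.30 in that fit, with 25 negative. Deep layer genes had the same sign in 17 of 27 (62.96%), upper layer genes in 12 of 18 (66.67%), fibroblast genes in 11 of 28 (39.29%, with a median of -0.04 in ABX mice), perivascular macrophage and lymphatic genes in 11 of 15 (73.33%) and cardiac genes in 3 of 12 (25%). With the GC-content trend removed the cardiac median in ABX mice was 0.02, with 4 negative and 8 positive. In non-ABX mice the cardiac median was -0.30 in that fit, with 12 negative.

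A test of the difference between both stage effects called 0 genes (0%) by edgeR, 346 (2.06%) at an unadjusted p under 0.05, and DESeq2 called 4. The smallest p among the named genes belonged to Myh6, which had a log2 fold change of -1.06 without and 0.17 with ABX (unadjusted p of the difference 7.5e-05, edgeR adjusted p = 0.564). Prr16 had 0.54 and -0.23 (unadjusted p 1.1e-04), and Etv6 -0.32 and 0.11 (unadjusted p 4.4e-04). By list, 6 of 12 cardiac genes, 8 of 24 glucocorticoid-induced genes and 5 of 21 clock genes were at an unadjusted p under 0.05 for the difference. Glucocorticoid-induced genes had a median of -0.01 without ABX (0.11 without pre-extinction replicate 3) and 0.38 with it, and Fkbp5 had 0.25 and 0.78 (unadjusted p of the difference 0.0145). Of the sterol enzymes 0 of 20 were at that p.

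**Figure D5:**
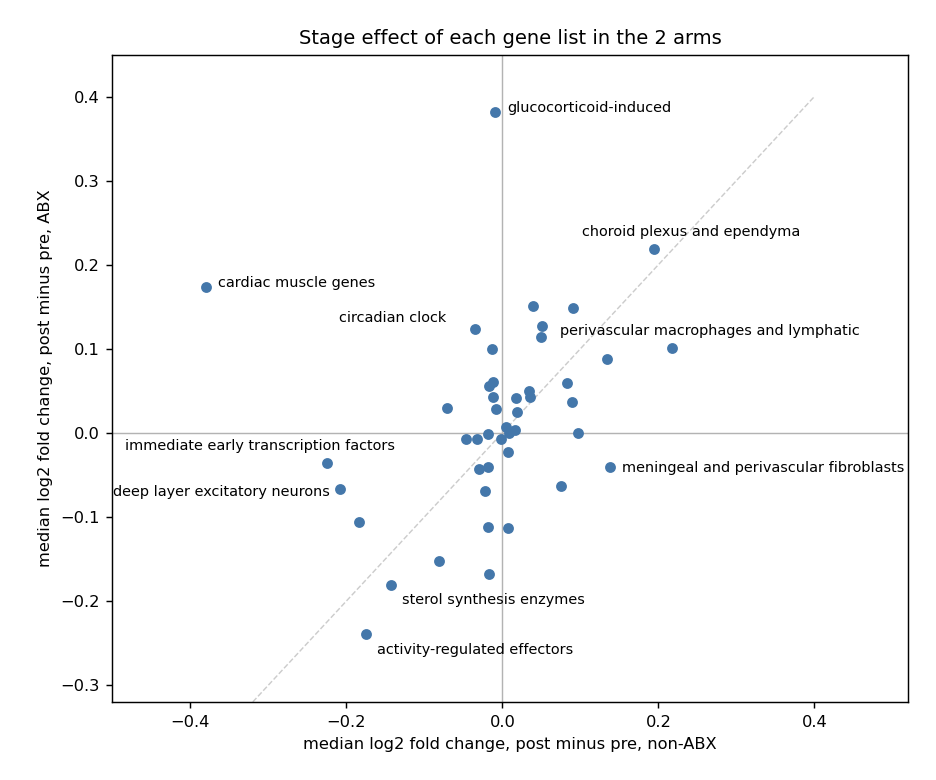
Median log2 fold change after against before extinction of each of 45 gene lists with at least 10 tested members, in non-ABX mice (x axis) and ABX mice (y axis), with equality dashed. Sterol enzymes and activity-regulated effectors lie low in both arms, cardiac genes lie at -0.38 without and 0.17 with ABX, and glucocorticoid-induced genes at -0.01 and 0.38. All points are from the main fit. With the GC-content trend removed the cardiac medians were -0.30 without and 0.02 with ABX, and the glucocorticoid-induced ones -0.02 and 0.29.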

How the data were processed

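Bulk RNA-seq of dissected mPFC was analysed from 1 deposited table of raw counts per Entrez gene, with 1 column per library and no normalization by the authors that the values show. The submitters' processing notes name the build mm10 and the tools STAR (2.3.0) and CASAVA (1.8.2), and which program counted reads on which annotation is not given in the sources used. Per the labels' protocols libraries were made with a SMARTer low-input kit, which does not mark strand, so antisense partners cannot be told apart; the same text speaks of sorted cells, whereas the source is dissected tissue.

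Of 27179 identifiers, 25275 matched a RefSeq symbol (99.73% of counts). Low genes were removed with filterByExpr at a count of 10 and a total of 15, libraries were scaled by TMM, and counts were fitted in edgeR 4.0.16 (R 4.3.3) with 4 group means over all 15 libraries, the quasi-likelihood test being two-sided with Benjamini-Hochberg adjustment over 16816 genes. Standard errors are the fold change over the square root of F. The biological coefficient of variation was 0.112 and the median standard error 0.12, so the spread between libraries set the precision. Alternatives were DESeq2 1.42.0, voom with quality weights (limma 3.58.1), RLE scaling, other filters, the replicate block, the compared groups alone, 1 surrogate variable (sva 3.50.0) and each library left out. Removal of a GC-content trend (spline with 5 degrees of freedom on the longest GENCODE transcript, 91.18% of tested genes), also with transcript length, was added after seeing the data. In simulated data for the non-ABX contrast, over 16710 genes, 97 of 100 genes changed by 1 on the log2 scale and 54 of 100 changed by 0.5 were called, with 7 false calls. The simulated counts were independent between genes and held no GC-content trend and no shift shared within a library. They check the fit under those conditions and do not give its power or false calls in the real libraries.

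The comparison, its gene lists and its tests were chosen with earlier results of these data known. Genes were named by rule: the 12 of smallest p in each direction that have no clone name, reach 1 CPM on average and have groups that do not overlap; in a described list the members of smallest p and the one of highest level; and 8 genes always. Grik2, Gria4, Kctd8, Anpep and Klk6 were named outside this rule, after their values were seen. Mvk, Pmvk, Mvd, Idi1, Nsdhl, Sc5d, Junb and Myh7 were also described outside it. Slc17a7, Drd2, Adora2a and Aqp4 were named as markers of the tissue. The checks over 105 named genes below cover none of these genes. Promoter windows came from RefSeq (GRCm38.p6). A few genes chosen this way are left unreported, although counts and medians of their lists include them, and others are named only under how the results depend on the processing.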

Additional observations from a re-analysis of the deposited data

Results flagged for a closer look

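In the post-extinction group of 4 libraries, 1 library stood apart from the other 3 by Dixon's criterion in 5 of 105 named genes and in 2 of 19 list means; chance marks about 1 in 20 groups. Replicate 1 was lowest for Hsd17b7 (28.5 CPM), Egr2 (3.09 CPM) and Fosl2 (26.8 CPM). Replicate 1 was also lowest for the mean log2 CPM of immediate early transcription factors (3.47) and of activity-regulated effectors (4.57). Replicate 4 was lowest for Cdkn1a (21.4 CPM), and replicate 2 was highest for Rgs4 (719 CPM).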

How the results depend on the processing

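The number of genes called for the non-ABX stage effect was 0, and 0 also under RLE scaling, the stricter filter, the replicate block and the compared groups alone. It was 2 with the GC-content trend removed, 2 with transcript length added, 2 with no filter, 3 with 1 surrogate variable, 19 by DESeq2 and 3191 by voom with quality weights; the cause was not tested. Leaving out 1 library gave 0 to 1, with 1 call without pre-extinction replicate 3 and 1 without post-extinction replicate 4. For the ABX stage effect the count of 16 became 71 with the GC-content trend removed, 158 with transcript length added, 465 by voom and 285 by DESeq2, and leaving out 1 library gave 3 (without pre-extinction replicate 1) to 237 (without pre-extinction replicate 4). The difference of both stage effects had 0 calls throughout except 4 by DESeq2.

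The median of the cardiac list was -0.30 with the GC-content trend removed, -0.28 with transcript length added, -0.19 under the stricter filter, which leaves 8 genes, -0.27 with the replicate block, -0.26 with 1 surrogate variable and -0.30 by voom, and leaving out 1 library gave -0.43 to -0.24. Other list medians moved by more than the SD between libraries too. Voom gave 0.13 for glucocorticoid-induced genes and 0.11 for sterol uptake genes, and leaving out pre-extinction replicate 3 gave 0.09 for clock genes and 0.12 for sterol uptake genes. GABA genes went from -0.08 to -0.01 with the GC-content trend removed, and to -0.16 to -0.01 with 1 library left out. The medians of the sterol enzymes, immediate early factors, effectors and deep layer genes stayed within that SD, which is wide for the immediate early factors: their median was -0.22, 0.01 by voom, and -0.37 to -0.03 with 1 library left out.

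The replicate numbers did not pair the samples: the correlation of deviations was 0.04, -0.09 and 0.37 for replicates 1, 3 and 4. With the replicate block 0 genes were called, and only replicate 4 correlated best with its own number.

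Of 105 single genes, 9 changed sign under some alternative, with reported values between -0.18 (Npas4) and 0.10 (Stab1). With the GC-content trend removed the log2 fold change was 0.0122 for Rgs4, -0.0395 for Sulf2, -0.001 for Stab1, -0.0344 for Gabbr1, -0.0902 for Cck and 0.0465 for Epha4. With transcript length added it was -0.0349 for Sulf2, -0.0198 for Gabbr1, -0.111 for Cck and 0.0662 for Epha4. A surrogate variable gave 0.0151 for Rgs4, -0.0655 for Sulf2, -0.042 for Stab1, -0.063 for Cck and 0.0202 for Epha4. The replicate block gave -0.0225 for Sulf2 and -0.0024 for Gabbr1. Voom gave 0.177 for Srebf2, -0.0038 for Lamp5 and 0.0137 for Npas4. Leaving out 1 library gave -0.105 to 0.218 for Srebf2, -0.0274 to 0.0782 for Sulf2, -0.0243 to 0.103 for Lamp5, -0.0027 to 0.0347 for Gabbr1, -0.049 to 0.137 for Cck, -0.0613 to 0.0183 for Epha4 and -0.519 to 0.0582 for Npas4. In 95 of 1781 single-gene values an alternative called the gene, 73 of them by voom and 14 by DESeq2. Genes under 1 CPM, such as Nppa and Myl2, are limited by counting error as well as by the number of libraries.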

Other observations

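The list of heat shock proteins and unfolded protein response genes had 16 of 25 tested members with a positive log2 fold change, and 2 were higher at an unadjusted p under 0.05, against 1.51% of all genes. Creld2, a resident of the endoplasmic reticulum that is induced when unfolded proteins accumulate, was at 11.7, 13.1 and 11.9 CPM before extinction and 15.9, 16.3, 13.5 and 13.6 CPM after it, with the groups apart (log2 fold change 0.28, SE 0.10, unadjusted p = 0.0145). Sdf2l1, a cofactor of the same compartment, was at 5.17, 6.42 and 6.15 CPM before extinction and 8.24, 7.64, 7.05 and 6.35 CPM after it, with overlapping groups. Dnajb5, a cytosolic Hsp40 chaperone, was lower, at a log2 fold change of -0.33 (SE 0.13). After the GC-content trend was removed Sdf2l1 had an unadjusted p of 0.12 and Dnajb5 one of 3.4e-04.

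Neuropeptide genes had 18 of 27 members with a negative log2 fold change, against 50.9% of all genes, and 4 lower at an unadjusted p under 0.05, against 3.43%. Their median was -0.07, and leaving out 1 library gave -0.11 to -0.02. Sstr2, a somatostatin receptor, was at 16.6, 18.9 and 17.8 CPM before extinction and 12, 13.8, 12.1 and 15.9 CPM after it, apart in all libraries (log2 fold change -0.40, SE 0.14, unadjusted p = 0.0107). Tac1, the precursor of substance P, had -0.22 (SE 0.08), whereas Cck, the most abundant of the list, had 0.01 (SE 0.10). With the GC-content trend removed 5 members were lower at an unadjusted p under 0.05 (3.99% of all genes), with a median of -0.10. Sstr2 then had -0.44 and Tac1 -0.12 (unadjusted p = 0.12).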
